A study of Mus musculus with 6 samples.

Results

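The enzymes that hydroxylate and crosslink collagen were examined by RNA sequencing of macrophages grown from mouse bone marrow (BMDMs) and co-cultured with tumour cells. The genes were 10 of the 54532 listed in the deposited table, chosen by name: the prolyl 4-hydroxylase alpha subunits P4ha1, P4ha2 and P4ha3, the lysyl hydroxylases Plod1, Plod2 and Plod3, and the lysyl oxidases Lox, Loxl1, Loxl2 and Loxl3. The list was drawn up when the difference between the groups was already known. The values of these genes across the groups, and whether they passed a threshold, are therefore given as a description, without p-values. The BMDMs came from C57BL/6 mice and shared their culture with ID8, a tumour line grown out of mouse ovarian surface epithelium. Before co-culture the tumour cells had received either cisplatin at 40 µM, which damages DNA by joining its bases (3 libraries), or the vehicle PBS, a buffered salt solution (3 libraries), and no library came from BMDMs cultured without ID8 cells. The study's methods state that the bone marrow-derived cells were collected after co-culture, but neither how they were parted from the ID8 cells nor for how long the cells were kept together. ID8 is a single line, and nothing states that the replicates came from separate mice.

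Collagen chains are modified before they fold. In the endoplasmic reticulum, prolyl 4-hydroxylase, a tetramer of alpha subunits with protein disulphide isomerase, turns prolines into 4-hydroxyprolines, which hold the triple helix together at body temperature. Lysyl hydroxylases act on lysines of the same chains, and both kinds of enzyme need iron, 2-oxoglutarate, oxygen and ascorbate. Outside the cell the copper-dependent lysyl oxidases convert lysines and hydroxylysines to aldehydes, from which the crosslinks of fibrils form, and hydroxylation by the Plod2 product favours the more stable kind of crosslink. P4ha1, P4ha2, Plod1, Plod2, Lox and Loxl2 are known targets of the hypoxia-inducible factors (HIFs) in many cell types.

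Promoters of the hydroxylases are shown because HIFs bind a short core of ACGTG or GCGTG. RefSeq entries on GRCm38.p6 matched 5 of the 10 genes, P4ha1, P4ha2, P4ha3, Plod1 and Plod3. Plod2, Lox, Loxl1 and Loxl2, whose transcripts also fell, had no entry, nor had Loxl3. The 250 bases before the RefSeq start are given, 5′ to 3′ on the gene's strand, with every ACGTG and GCGTG in capitals on either strand (as CACGT and CACGC where the match lies on the other strand). Of the genes shown, the pair whose transcripts fell most, P4ha1 and P4ha2, stand first, and the pair with the smallest changes, Plod1 and Plod3, follow.
P4ha1, chr10:59323046-59323295, plus strand: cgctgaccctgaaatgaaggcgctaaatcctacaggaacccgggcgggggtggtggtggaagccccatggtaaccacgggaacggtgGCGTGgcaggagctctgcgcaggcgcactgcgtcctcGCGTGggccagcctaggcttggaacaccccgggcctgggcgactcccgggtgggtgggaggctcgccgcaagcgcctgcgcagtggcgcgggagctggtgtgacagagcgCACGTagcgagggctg
P4ha2, chr11:54100674-54100923, plus strand: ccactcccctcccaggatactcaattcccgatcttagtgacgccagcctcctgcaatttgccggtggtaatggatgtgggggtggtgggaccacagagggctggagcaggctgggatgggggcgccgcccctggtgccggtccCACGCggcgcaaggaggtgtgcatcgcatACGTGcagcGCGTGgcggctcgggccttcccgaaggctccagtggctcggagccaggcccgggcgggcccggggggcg
Plod1, chr4:147936777-147937026, minus strand: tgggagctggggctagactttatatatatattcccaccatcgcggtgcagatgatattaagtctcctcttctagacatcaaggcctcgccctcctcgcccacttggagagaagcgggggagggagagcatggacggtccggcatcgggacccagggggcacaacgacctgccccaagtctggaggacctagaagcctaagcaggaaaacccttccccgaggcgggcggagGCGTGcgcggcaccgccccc
Plod3, chr5:136986769-136987018, plus strand: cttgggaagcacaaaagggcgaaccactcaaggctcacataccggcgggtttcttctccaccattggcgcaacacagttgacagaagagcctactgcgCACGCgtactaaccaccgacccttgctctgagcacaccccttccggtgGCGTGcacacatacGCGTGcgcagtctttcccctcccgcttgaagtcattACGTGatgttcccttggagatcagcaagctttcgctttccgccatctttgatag
The P4ha1 window held 1 ACGTG and 2 GCGTG, and that of P4ha2 held 1 and 2 as well. Plod3 also had 1 ACGTG, with 3 GCGTG, whereas Plod1 had 0 ACGTG and 1 GCGTG. The P4ha3 window, not shown, held 0 of either. Among 32851 mouse promoter windows of this length, 16.6% held ACGTG, 28.2% held GCGTG and 6.1% held both. Whether HIFs bind at these letters, or whether the letters bear on the levels, was not tested. The RefSeq start of P4ha2 lies within the gene as the deposited table draws it, since the table's P4ha2 begins further upstream.

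Levels are given as FPKM, that is reads scaled to the length of the gene and to the size of the library, which allows genes of different length to be compared. The values corresponded to 15776238 to 17924686 whole reads per library. Libraries of 1 group correlated with r of 0.984 to 0.989 over the tested genes, and libraries of different groups with r of 0.871 to 0.877. Genes were tested when they reached 1 FPKM in at least 3 libraries, which kept 13441 genes and 8 of the 10 enzymes, and a gene was called when it passed both an adjusted p of 0.05 (limma, Benjamini-Hochberg) and a log2 fold change of 1 in size. Of the 8 tested enzymes, 6 were called lower with cisplatin and 0 higher. Over all tested genes 11.3% were called lower and 4.67% higher. The median log2 fold change of the 8 was -1.86, and that of all tested genes was -0.0011. P4ha2, Plod2 and Loxl2 had the largest differences, P4ha1, Lox and Loxl1 followed, Plod1 and Plod3 differed little, and P4ha3 and Loxl3 were too low to be tested. Since this is bulk RNA, fewer cells of a type and less RNA per cell cannot be told apart.

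**Figure D1:**
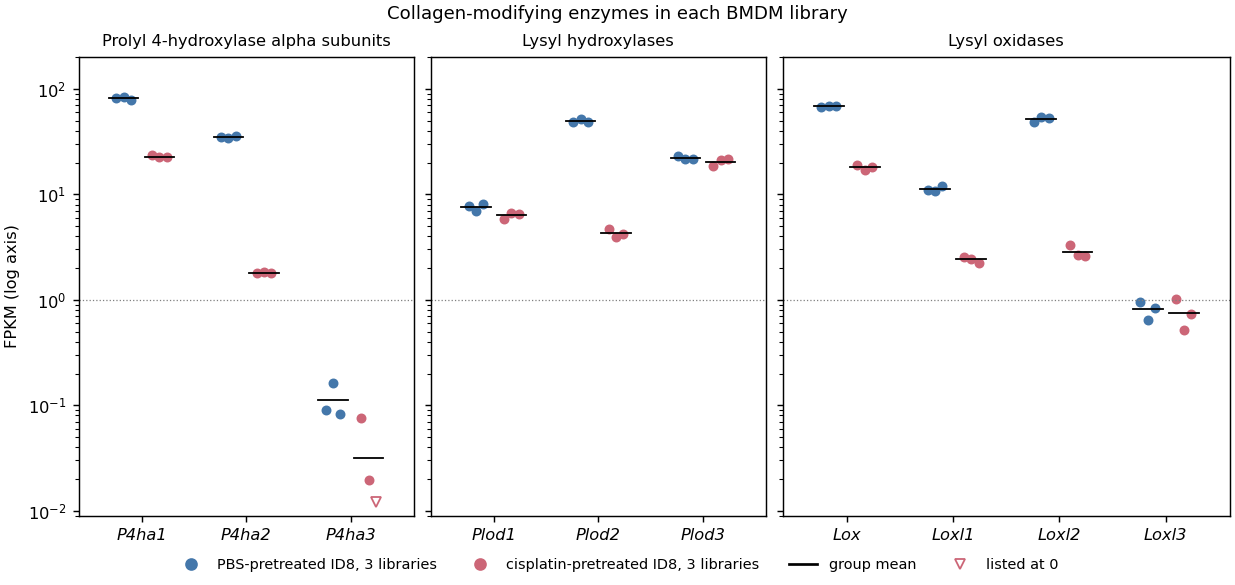
FPKM of each enzyme on a log axis, with 1 point per library (blue, PBS; red, cisplatin), a black bar at the group mean, an open triangle where a gene was listed at 0, and a dotted line at 1 FPKM. For P4ha2, Plod2 and Loxl2 the cisplatin libraries lie between 1.78 and 4.71 FPKM and the PBS libraries between 34.4 and 53.7 FPKM, while the points of Plod1, Plod3 and Loxl3 lie close together.

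Prolyl 4-hydroxylase was represented almost wholly by 2 alpha subunits. P4ha1, the widely expressed alpha subunit (ENSMUSG00000019916, chromosome 10, 59323296 to 59373304), was the most abundant of the 10 enzymes in both groups. Its level was 81.7, 82.8 and 79.1 FPKM in the PBS libraries and 23.3, 22.5 and 22.5 FPKM in the cisplatin libraries. Every PBS library was thus more than 3 times as high as any cisplatin library, the lowest PBS value being 3.39 times the highest cisplatin value. The log2 fold change was -1.79 (SE 0.035), from a mean of 81.2 ± 1.90 to 22.8 ± 0.488 FPKM (SD, n = 3 each).

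P4ha2 encodes the alpha subunit that is more prominent in cells of cartilage, bone and endothelium (ENSMUSG00000018906, chromosome 11, 54100095 to 54131665). It was listed at 34.8, 34.4 and 35.9 FPKM with PBS and at 1.80, 1.84 and 1.78 FPKM with cisplatin. The means, 35.02 ± 0.778 and 1.81 ± 0.0349 FPKM (SD, n = 3 each), stood in a ratio of 19.4, and the log2 fold change was -3.68 (SE 0.042). P4ha2 ranked 23 from the lowest among the 13441 fold changes. The cisplatin values rested on 191, 189 and 183 reads, so that counting error was small beside the difference.

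P4ha3, the rarest alpha subunit (ENSMUSG00000051048, chromosome 7, 100285520 to 100319699), was barely detected. It had 5, 8 and 4 reads in the PBS libraries and 4, 1 and 0 reads in the cisplatin libraries. The library listed at 0 allows up to 0.0579 FPKM (3 reads), and no PBS library exceeded 0.164 FPKM. The groups did not overlap in FPKM (lowest PBS value 0.0823, highest cisplatin value 0.0750), but a library of each group had 4 reads, and with so few reads no fold is given. With P4ha2 falling further than P4ha1, the makeup of the class changed: P4ha1 took 69.8% ± 0.943 of the summed alpha subunit FPKM with PBS and 92.5% ± 0.160 with cisplatin (SD, n = 3 each), and P4ha2 30.1% ± 0.972 and 7.34% ± 0.212. The summed FPKM of the class was 116 ± 1.16 and 24.6 ± 0.524.

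The lysyl hydroxylases split into 1 gene with a large difference and 2 with little. Plod2, whose product hydroxylates the collagen telopeptides (ENSMUSG00000032374, chromosome 9, 92542223 to 92608428), had 48.6, 51.2 and 48.6 FPKM with PBS. In the cisplatin libraries it had 4.71, 3.92 and 4.20 FPKM, and the lowest PBS value was 10.3 times the highest of these. The log2 fold change was -3.26 (SE 0.063), with means of 49.5 ± 1.52 and 4.28 ± 0.401 FPKM (SD, n = 3 each).

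Plod1, whose product acts on lysines of the collagen helix (ENSMUSG00000019055, chromosome 4, 147909753 to 147936767), was listed at 7.75, 6.97 and 8.16 FPKM with PBS and at 5.83, 6.70 and 6.46 FPKM with cisplatin. The groups did not overlap, but the lowest PBS value was only 1.04 times the highest cisplatin value. Its log2 fold change was -0.23 (SE 0.074), short of the threshold of 1. Plod3, whose product can also add sugars to hydroxylysine (ENSMUSG00000004846, chromosome 5, 136987019 to 136996648), had 23.3, 21.8 and 21.8 FPKM with PBS and 18.4, 20.96 and 21.7 FPKM with cisplatin. The groups were apart by less than 0.1 FPKM (21.80 against 21.72), which is smaller than the spread within either group. The log2 fold change of Plod3 was -0.13 (SE 0.067). Plod3 overlaps Znhit1 on the other strand in the table's annotation, and whether reads were counted by strand is not stated.

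Plod2 thus went from the largest to the smallest lysyl hydroxylase. It took 62.3% ± 1.54 of the summed Plod FPKM with PBS and 13.9% ± 2.09 with cisplatin (SD, n = 3 each), whereas Plod3 took 28.1% ± 1.03 and 65.7% ± 1.85. Plod1 took 9.61% ± 0.849 and 20.4% ± 0.677. The sum of the 3 genes was 79.4 ± 0.780 FPKM with PBS and 30.96 ± 1.80 with cisplatin, a ratio of 2.56, against 4.73 for the prolyl 4-hydroxylase subunits and 5.50 for the lysyl oxidases.

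**Figure D2:**
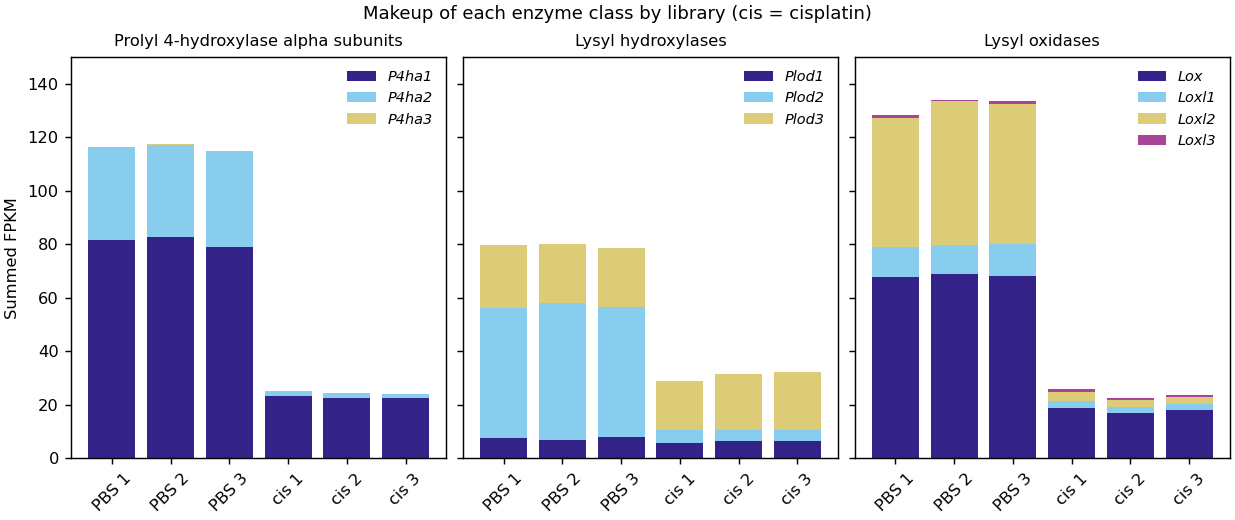
Summed FPKM of the 3 enzyme classes in each library, with the part of each gene as a stacked segment (axis from 0). The lysyl oxidase sum is 128 to 134 FPKM in the PBS libraries and 22.5 to 25.8 in the cisplatin libraries, and in the middle panel the Plod2 segment shrinks while that of Plod3 keeps nearly its height.

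Lox encodes the founding lysyl oxidase, which is secreted as a proenzyme and acts on collagen and elastin (ENSMUSG00000024529, chromosome 18, 52516069 to 52529867). It stood at 67.7, 69.1 and 68.2 FPKM with PBS and at 18.9, 16.9 and 18.1 FPKM with cisplatin. All PBS libraries were at least 3.58 times as high as any cisplatin library, and the log2 fold change was -1.87 (SE 0.047). Lox remained the main gene of its class, with 51.8% ± 0.881 of the class's FPKM with PBS and 74.9% ± 1.60 with cisplatin (SD, n = 3 each).

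Loxl2, whose product carries scavenger receptor domains and crosslinks the collagen IV of basement membranes (ENSMUSG00000034205, chromosome 14, 69609068 to 69695834), differed nearly as P4ha2 did, at -3.77 on the log2 scale (SE 0.081). P4ha2 had the larger difference of the pair by the ratio of means (19.4 against 18.03), with a pseudocount of 0.1 (-4.20 against -4.13) and with limma voom (-4.19 against -4.09). In the PBS libraries Loxl2 was at 48.5, 53.7 and 52.5 FPKM, and in the cisplatin libraries at 3.32, 2.67 and 2.60 FPKM. The lowest PBS value was 14.6 times the highest cisplatin value, and the share of Loxl2 in the class was 39.1% ± 1.14 with PBS and 11.9% ± 0.947 with cisplatin. Loxl1, linked to elastic fibres (ENSMUSG00000032334, chromosome 9, 58287738 to 58313186), was lower throughout. It had 11.1, 10.7 and 11.9 FPKM with PBS against 2.55, 2.46 and 2.22 FPKM with cisplatin, a log2 fold change of -1.84 (SE 0.064). The smallest number of reads behind any of these values of Loxl1 was 121.

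Loxl3 (ENSMUSG00000000693, chromosome 6, 83034173 to 83052562) did not follow the other lysyl oxidases. Its 3 PBS values were 0.957, 0.642 and 0.841 FPKM, and its 3 cisplatin values were 1.01, 0.516 and 0.737 FPKM. The groups overlapped, with 46 to 78 reads per PBS library and 39 to 79 per cisplatin library, and the gene stayed under the filter. It overlaps Htra2 on the other strand, a gene with more reads per length, at 7.99 FPKM with PBS and 14.7 FPKM with cisplatin. Whether reads were counted by strand is not stated, and the part of Htra2 reads in the Loxl3 values was not tested.

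In the order of levels with PBS, P4ha1 came first, then Lox, Loxl2, Plod2, P4ha2, Plod3, Loxl1, Plod1, Loxl3 and P4ha3. Of neighbours in that order, Loxl2 (48.5 to 53.7 FPKM) and Plod2 (48.6 to 51.2 FPKM) overlapped, and the others did not. With cisplatin the order was P4ha1, Plod3, Lox, Plod1, Plod2, Loxl2, Loxl1, P4ha2, Loxl3 and P4ha3, where Plod3 (18.4 to 21.7 FPKM) and Lox (16.9 to 18.9 FPKM) overlapped. P4ha2, in place 5 with PBS, was the lowest of the 8 tested enzymes with cisplatin. In all 8 tested enzymes the PBS libraries lay above the cisplatin libraries, which held for 37.2% of all tested genes. By the adjusted p alone, which 35.1% of all tested genes passed as lower and 68.0% in either direction, Plod1 would be added to the 6. Plod1 did not pass it with a replicate block, without a filter, with quantile normalisation, or in 4 of 6 fits without 1 library (cisplatin 1, cisplatin 3, PBS 1 or PBS 3).

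The genes that work with these enzymes were then described from lists of known function, chosen with earlier results of the same data known. Adjusted p-values printed for genes of these lists and of the markers are therefore a description and not independent evidence. Beside the counts, 11.3% of all tested genes were called lower and 4.67% higher. In the list of chaperones and modifying enzymes of the endoplasmic reticulum, 6 of 10 tested genes were called lower and 0 higher, with a median log2 fold change of -1.09. Serpinh1, the collagen chaperone HSP47, fell by 2.08 on the log2 scale (109 ± 2.57 FPKM with PBS and 24.98 ± 0.585 FPKM with cisplatin, SD, n = 3 each, limma adjusted p = 6.29e-08). P3h4, a partner of lysyl hydroxylation complexes, fell by 2.49 on the log2 scale (limma adjusted p = 2.08e-07), and Fkbp14, a prolyl isomerase, by 1.81 (limma adjusted p = 2.05e-06). P4hb, the disulphide isomerase that forms the other subunit of prolyl 4-hydroxylase and was named after its values were seen, was far more abundant than the alpha subunits and changed less, from 679 ± 16.5 to 328 ± 8.14 FPKM (log2 fold change -1.05, limma adjusted p = 5.97e-07). Fkbp10 and P3h2, also named after their values were seen, were the other genes called lower. P3h1, Crtap and Colgalt1 were lower as well by the adjusted p but short of the fold threshold (log2 fold changes of -0.66, -0.60 and -0.36), and Ppib, a cyclophilin of the same compartment, had a log2 fold change of 0.092 (limma adjusted p = 0.0884).

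Among genes of extracellular maturation, 5 of 7 tested were called lower and 0 higher (median -1.55). Adamts14, 1 of the 5, was under 1 FPKM in every cisplatin library and so was tested only because it was high with PBS; without it the count was 4 of 6. Loxl4, the remaining lysyl oxidase, which was not on the list of 10, fell by 2.04 on the log2 scale (17.9 ± 0.243 FPKM with PBS and 3.59 ± 0.296 FPKM with cisplatin, SD, n = 3 each, limma adjusted p = 2.87e-07). Efemp2, which encodes the fibulin that brings lysyl oxidase to elastin, fell by 1.97 on the log2 scale (limma adjusted p = 6.09e-07). Pcolce, an enhancer of procollagen processing, fell by 1.91 (limma adjusted p = 9.22e-08). The substrates were sparse. Only 5 of 14 collagen and elastin genes reached the filter, and 3 of them were called lower and 0 higher (median -1.89). They included the basement membrane collagens Col4a1 (means of 27.9 and 5.98 FPKM, log2 fold change -2.05, limma adjusted p = 4.46e-07) and Col4a2 (31.7 ± 1.35 to 7.82 ± 0.625 FPKM, log2 fold change -1.89, limma adjusted p = 5.70e-07). The other was Col6a1, at 5.76 ± 0.917 FPKM with PBS and 0.641 ± 0.0747 FPKM with cisplatin (SD, n = 3 each), which passed the filter through the PBS libraries alone, and without it the count was 2 of 4 (median -1.23). The fibrillar collagen genes, named after their values were seen, were low. Col1a1 had means of 2.97 and 1.87 FPKM (log2 fold change -0.47, limma adjusted p = 0.00361) and Col5a1 of 2.54 and 1.40 FPKM (log2 fold change -0.56, limma adjusted p = 0.000481), both short of the fold threshold, and the means of Col1a2, Col3a1 and Col5a2 did not exceed 0.102 FPKM.

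Genes that supply the cofactors, such as the ascorbate transporter Slc23a2 and the copper pump Atp7a, gave 0 calls in either direction among 7 tested by limma (median -0.018). Without the fold threshold, 6 of the 7 had a p under 0.05 both before and after adjustment, in both directions. Slc23a2, named after its values were seen, was higher with cisplatin (log2 fold change 0.57) and Atp7a lower (-0.99). Of the HIF hydroxylases, which are oxygen-sensing relatives of the collagen hydroxylases, 2 of 4 tested were called lower and 0 higher. These were Egln3 (231 ± 3.71 to 12.9 ± 1.34 FPKM, log2 fold change -4.06, limma adjusted p = 6.24e-08) and Egln1 (83.1 ± 2.30 to 14.7 ± 0.799 FPKM, log2 fold change -2.42, limma adjusted p = 8.76e-08), both HIF targets themselves. Egln2 and Hif1an, named after their values were seen, were not called. Egln2 was higher with cisplatin (log2 fold change 0.37, limma adjusted p = 0.00624) and Hif1an differed little (-0.048).

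Of 12 further HIF targets outside collagen modification, 10 were called lower and 0 higher (median -2.41). Adm (log2 fold change -0.68) and Car9 (-0.37), named after their values were seen, were short of the fold threshold. Ndrg1, a stress-response gene, had a log2 fold change of -4.10 (limma adjusted p = 1.82e-08), near that of P4ha2 and Loxl2. The mitophagy receptor gene Bnip3 had one of -2.98 (limma adjusted p = 8.76e-08), and Ankrd37 one of -2.96 (limma adjusted p = 9.15e-07). Matrix genes known to respond to TGF-beta went both ways, with 4 of 7 tested called lower and 3 higher (median -1.41). Ccn2, connective tissue growth factor, was at 20.3 ± 1.28 FPKM with PBS and 0.469 ± 0.0413 FPKM with cisplatin (SD, n = 3 each), so that it passed the filter through the PBS libraries alone. Without Ccn2 the list had 3 genes lower and 3 higher of 6, and its median turned to 0.17. Thbs1, thrombospondin 1, rose by 2.76 on the log2 scale (136 ± 4.43 FPKM with PBS and 930 ± 4.95 FPKM with cisplatin, SD, n = 3 each, limma adjusted p = 3.02e-08). Tgfbi (log2 fold change 1.81, limma adjusted p = 6.68e-08) and Acta2 (log2 fold change 1.75, limma adjusted p = 4.64e-07), named after their values were seen, rose as well. Over the 7 lists together 30 of 52 tested genes were called lower and 3 higher, and without the 3 genes that passed through the PBS libraries alone, 27 of 49 and 3. The shares over all tested genes were 11.3% and 4.67%, so that the share called higher in the lists lay near that of all genes.

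**Figure D3:**
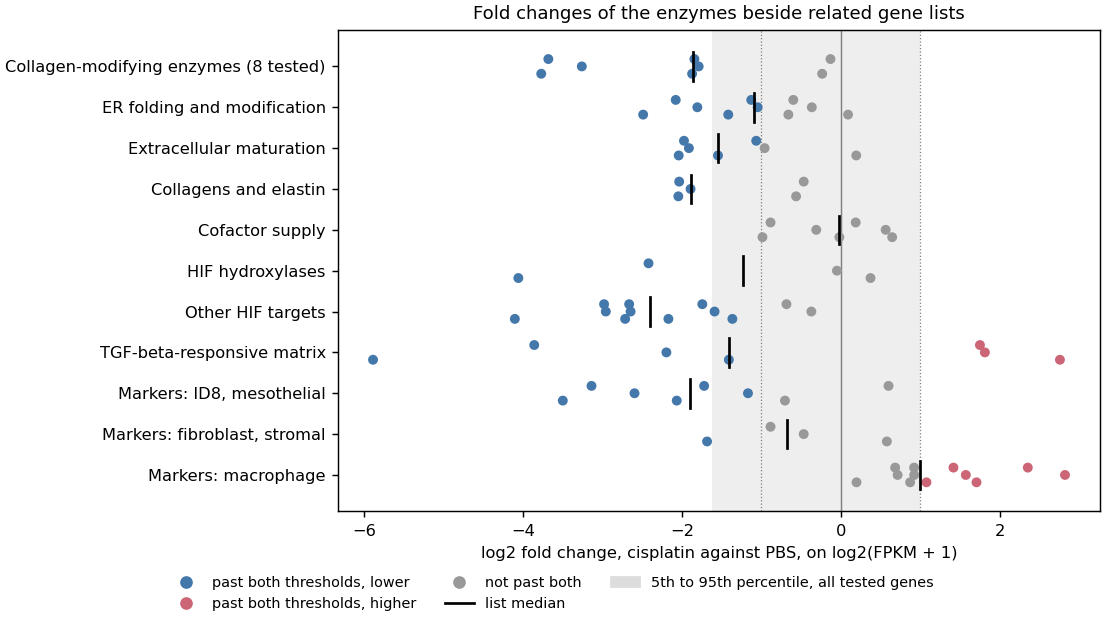
Log2 fold change (cisplatin against PBS, on log2(FPKM + 1)) of the tested genes of each list, 1 point per gene, blue where called lower, red where called higher and grey otherwise, with a black bar at the list median and a grey band from the 5th to the 95th percentile of all tested genes (-1.61 to 0.99). The enzyme median of -1.86 lies near those of the ID8 and mesothelial markers (-1.89) and of the collagens and elastin (-1.89, 5 tested genes). The macrophage markers lie above 0.

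Markers of the cells in the co-culture also differed between the groups. For the counts of markers here and below, the shares over all tested genes were 11.3% called lower and 4.67% higher. The libraries held macrophage transcripts, as labelled: all 12 macrophage markers were tested, their summed level was 1593 to 1614 FPKM with PBS and 4178 to 4336 FPKM with cisplatin, and 6 were called higher, or 4 of 10 without Mertk and Mrc1, which passed the filter through the cisplatin libraries alone. Of these markers Lyz2 was the most abundant (1161 ± 10.8 to 3459 ± 80.4 FPKM, SD, n = 3 each), with Adgre1 (103 ± 1.06 to 190 ± 3.52 FPKM) and Cd68 (156 ± 8.92 to 179 ± 2.52 FPKM) next. The libraries also held keratin and mesothelial transcripts. Of 12 such markers 8 were tested and 6 called lower, with a summed level of 1001 to 1077 FPKM in the PBS libraries and 182 to 196 FPKM in the cisplatin libraries. Krt19 went from 588 ± 28.8 to 51.1 ± 3.80 FPKM (SD, n = 3 each), a ratio of 11.5, and Krt8 from 151 ± 8.93 to 24.2 ± 1.57 FPKM. Msln, mesothelin, differed far less, from 99.9 ± 1.29 to 61.03 ± 2.10 FPKM, a ratio of 1.64. Cdh1, E-cadherin, went the other way, from 3.24 ± 0.521 to 5.41 ± 0.529 FPKM (log2 fold change 0.60, limma adjusted p = 0.00238), short of the fold threshold. Krt7, Lrrn4, Muc16 and Epcam stayed under 1 FPKM in all 6 libraries. The summed ID8 and mesothelial level thus differed 5.52-fold, and the summed level of the 10 enzymes, 325 to 331 FPKM with PBS and 78.5 to 80.3 with cisplatin, differed 4.12-fold. The ratios of P4ha2, Loxl2 and Plod2 (19.4, 18.03 and 11.6) were as large as or larger than that of Krt19, and those of P4ha1 and Lox (3.56 and 3.80) lay between those of Msln and Krt19. The part of ID8 RNA in the enzyme differences was not tested.

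Fibroblast and stromal markers gave 1 call lower and 0 higher among 4 tested of 8, with a summed level of 117 to 127 FPKM with PBS and 52.4 to 62.1 with cisplatin. Pdpn and Dcn made up most of it (62.4 ± 3.20 and 54.1 ± 2.62 FPKM with PBS, 33.5 ± 3.75 and 16.2 ± 0.844 FPKM with cisplatin, SD, n = 3 each), and Thy1 followed by the mean of all libraries (2.25 ± 0.355 and 3.86 ± 0.547 FPKM). Col1a1 was at 2.97 and 1.87 FPKM and Pdgfra at 1.04 and 0.203 FPKM with PBS and cisplatin, Pdgfrb lay the other way at 0.644 and 1.004 FPKM, and Col3a1 and Lum did not exceed 0.114 FPKM on average in either group. Endothelial markers, with 2 of 5 tested, gave 0 calls (limma), and summed to 10.9 to 11.5 FPKM with PBS and 13.8 to 14.6 FPKM with cisplatin. Both tested genes passed the adjusted p without the fold threshold, in opposite directions, Pecam1 higher (log2 fold change 0.66, limma adjusted p = 2.43e-05) and Tek lower (log2 fold change -0.92, limma adjusted p = 0.000118). The 4 Y-linked transcripts summed to 41.6 to 42.8 FPKM with cisplatin and 19.5 to 22.7 FPKM with PBS, with 1 of the 4 called higher and 0 lower. When libraries were scaled to these 4 Y-linked genes, the median of all tested genes moved to -0.81, and all 8 tested enzymes were called lower, Plod1 at -1.09 and Plod3 at -1.06, that is close to the median of all genes. Under that scaling 37.5% of all tested genes were called lower.

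**Figure D4:**
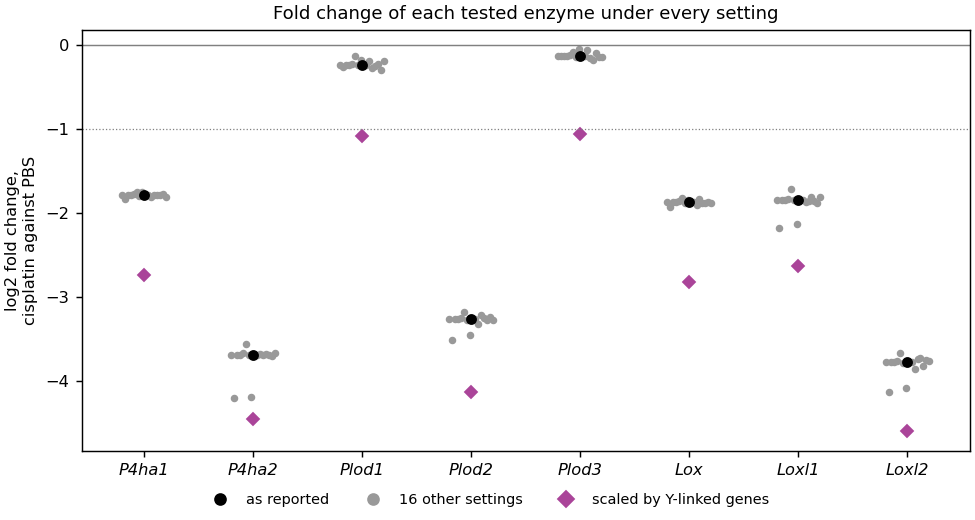
Log2 fold change of each tested enzyme as reported (black), under 16 other settings (grey) and when libraries were scaled to 4 Y-linked genes (purple), with a dotted line at the threshold of -1. Every value lies below 0, and 6 enzymes lie below -1 under every setting shown.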

How the data were processed

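RNA from 6 BMDM co-cultures, 3 per group, was extracted with TRIzol, selected with poly-T beads and sequenced at Novogene. Groups were taken from the treatment labels and library columns from the sample titles. The deposited values are FPKM per gene, calculated by the authors from read counts. The submitters' processing notes name fastp, HISAT2 2.0.5, featureCounts 1.5.0-p3 and mm10, whereas the methods of the study name LifeScope, and the strand setting is not given in the sources used here. Of the table's gene identifiers, 54409 were found in GENCODE M21 (GRCm38), 98.3% with the same coordinates, as for 9 of the 10 enzymes (Lox differed by 2 bases). Coordinates are those of the table.

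FPKM times gene length gave whole multiples of a fixed step in every library (100% of values worth fewer than 200 reads, within 0.02 of a read), from which reads were recovered. They totalled 15776238 to 17924686 per library, and floors from them cover counting error only. As FPKM are not counts, log2(FPKM + 1) was fitted with limma 3.58.1 under R 4.3.3 (lmFit, eBayes with a trend, group as the only term, two-sided), for genes of at least 1 FPKM in at least 3 libraries. Genes were called at a Benjamini-Hochberg adjusted p under 0.05 over all tested genes with a log2 change no smaller than 1 in size, which is the threshold of the study's methods. The scale understates changes of low genes, and p-values measure the spread between these samples, which may be technical. The fit was tested on simulated data.

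The 10 enzymes and the gene lists were chosen with earlier results of these data known. Named genes were all 10 enzymes, Loxl4, in each list the 3 tested genes with the largest called change, and the 3 most abundant markers. All other genes named in the text were chosen after their values were seen. A gene that the rule names is not reported here. The alternatives were a replicate block, other pseudocounts, filters and scalings, limma voom on recovered reads, eBayes without a trend, the adjusted p alone, and leaving out each library. Motifs were searched on both strands of RefSeq promoters with Python 3.11.15. No sample or value column was left out.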

Additional observations from a re-analysis of the deposited data

How the results depend on the processing

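Across 17 other settings the log2 fold changes of the 8 tested enzymes stayed below 0, and between 6 and 8 enzymes were called lower and 0 higher. With the filter at 5 FPKM, P4ha2, Plod2, Loxl1 and Loxl2 passed through the PBS libraries alone, being under 5 FPKM in every cisplatin library. Scaling by the 4 Y-linked genes, chosen with earlier results known, took Plod1 and Plod3 past both thresholds, and the adjusted p alone added Plod1, which the block, no filter, quantile normalisation and 4 of 6 fits without 1 library undid. The median of -1.86 moved to -2.05 with a pseudocount of 0.1, -1.82 without a filter (all 10 enzymes), -1.78 with quantile normalisation (median of all tested genes 0.10), -2.78 with Y-linked scaling and -1.98 with limma voom. Without 1 library at a time it was -1.89 to -1.84, with 6 enzymes and 30 to 31 pathway genes called lower and 3 higher in each fit. The 3 pathway genes called higher became 1 with Y-linked scaling and 7 with the adjusted p alone. With the replicate number as a block (replicate block), the median was -1.86, with 6 enzymes and 30 pathway genes called lower and 3 higher, counts equal to those reported. Deviations of same-numbered libraries correlated at -0.10, -0.086 and -0.024, and nothing states that they were prepared together. For each, the cause was not tested. P4ha3, with 0 to 8 reads per library, and Loxl3, under the filter of 1 FPKM, were fitted only without a filter.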
